A study of Homo sapiens with 4 samples.

Results

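The 93 protein-coding histone genes were followed in enzalutamide-resistant and control C4-2 cells, out of 60483 gene identifiers in the count tables, 19645 of them protein-coding. They were chosen by symbol alone, in old or current naming. Of these, 71 bear the symbols of the 4 histone gene clusters (HIST1 to HIST4) and are called clustered here, and the other 22 are called variant. The clustered genes comprised 6 H1, 17 H2A, 18 H2B, 15 H3 and 15 H4 genes. In GENCODE 29 (GRCh38) 55 of them lie on chromosome 6 between positions 25726132 and 27893843 (HIST1), 12 on chromosome 1 between 143905556 and 149887916 (HIST2), 3 on chromosome 1 between 228424845 and 228460470 (HIST3) and 1 on chromosome 12 (HIST4). Every annotated transcript has a single exon in 58 of the 71 clustered genes and in 11 of the 22 variant genes.

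C4-2 is an established human prostate cancer cell line, and enzalutamide is a drug that blocks the androgen receptor. The resistant group (phenotype enzalutamide-resistant) and the control group had 2 libraries each, from total RNA of cells at passage 20 to 30. Cells were treated for 1 month with or without enzalutamide, so that the drug and the resistance cannot be told apart. The growth protocol, worded alike for both groups, names RPMI 1640 with fetal bovine serum and then FGF-2 in an expansion medium, without saying which cells had FGF-2. The sources used here do not state whether the resistant cells are 1 clone, nor how ribosomal RNA was kept out of the libraries.

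Histones package DNA into nucleosomes, with H2A, H2B, H3 and H4 in the core and H1 on the linker. Clustered genes supply most of this protein during DNA replication. Their main transcripts end in a conserved stem-loop in place of a poly(A) tail, which SLBP, the stem-loop binding protein, recognises, and transcription depends on NPAT, a target of cyclin E and CDK2. Variant genes are expressed through the cell cycle, give polyadenylated and often spliced transcripts, and mark chromatin at promoters, DNA breaks or silent regions. How a library captures RNA without a poly(A) tail therefore bears on the level of clustered genes, and this capture was not measured here.

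The stem-loop is shown first because it separates the 2 classes in the annotated transcripts. Its letters (GG, any 2 bases, CTT, any base, T, any base, AG, any 2 bases and CC), searched after the stop codon on the transcript strand only, were found in 32 of the 36 clustered genes with an annotated 3′ UTR and in 1 of the 21 variant genes with one, H2AX. They were found in 112 of 60110 coding transcripts with a 3′ UTR in all of GENCODE 29, or 0.186%. For the other 35 clustered genes the annotation holds the coding sequence only, so that no letters after the stop codon could be read. Capitals mark the 4 bases of the loop, lower case the paired stem, and each is given 5′ to 3′ with T for U.
H2AC13, chr6:27808647-27808662, plus strand: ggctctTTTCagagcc
H2BC4, chr6:26123472-26123487, minus strand: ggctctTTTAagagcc
H4C2, chr6:26026901-26026916, minus strand: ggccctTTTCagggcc
H4C14, chr1:149833032-149833047, plus strand: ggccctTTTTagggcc
H2AC11, chr6:27133515-27133530, plus strand: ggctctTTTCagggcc
H3C6, chr6:26225596-26225611, plus strand: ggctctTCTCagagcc
H2AX, chr11:119094898-119094913, minus strand: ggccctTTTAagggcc
The form of H2AC13 was the commonest, in 17 genes of types H2A, H2B and H3. The form of H2BC4 was in 5 genes, that of H4C2 in 5 and that of H4C14 in 3, the last 2 forms in H4 genes. The forms of H2AC11 and H3C6 were each found in that gene alone among the members. In the clustered genes the letters began 22 to 67 bases after the stop codon, and the annotated transcript went on for 1 to 1917 bases beyond them.

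The promoters of the clustered genes share short elements, which are shown because the results below are set beside them. RefSeq promoter sequences (GRCh38.p14, 250 bases before to 50 after the start) matched 61 clustered and 18 variant genes by symbol. The elements searched were TATAAA on the gene's strand, and CCAAT, the octamer ATTTGCAT bound by POU2F1 (OCT1), AAACACA of H1 promoters, GGTCCG of H4 promoters and TTTGAA of cell cycle genes (the CHR element) on both strands. None of these contains another, but in H2BC21 a GGTCCG match on the other strand runs into a CCAAT match. The lines give the 130 bases before the start, with every match of the first 5 elements in capitals, for genes in which this window lies outside the GENCODE gene.
H1-5, chr6:27867589-27867718, minus strand: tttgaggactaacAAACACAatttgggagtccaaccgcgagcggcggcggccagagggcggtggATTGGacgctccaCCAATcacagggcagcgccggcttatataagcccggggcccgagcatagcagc
H2AC14, chr6:27814778-27814907, minus strand: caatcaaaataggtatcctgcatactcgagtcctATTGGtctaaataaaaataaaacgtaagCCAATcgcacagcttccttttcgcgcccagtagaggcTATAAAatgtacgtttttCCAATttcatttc
H2AC4, chr6:26033619-26033748, minus strand: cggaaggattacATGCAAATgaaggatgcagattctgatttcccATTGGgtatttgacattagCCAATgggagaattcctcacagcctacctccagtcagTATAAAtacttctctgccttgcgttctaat
H2BC12, chr6:27146859-27146988, minus strand: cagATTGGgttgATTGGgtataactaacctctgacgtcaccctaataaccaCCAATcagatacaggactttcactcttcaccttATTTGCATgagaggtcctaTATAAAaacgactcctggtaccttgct
H2BC21, chr1:149886683-149886812, minus strand: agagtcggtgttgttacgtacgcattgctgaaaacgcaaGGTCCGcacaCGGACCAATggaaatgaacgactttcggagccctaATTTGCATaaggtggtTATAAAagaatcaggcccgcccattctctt
H3C1, chr6:26020321-26020450, plus strand: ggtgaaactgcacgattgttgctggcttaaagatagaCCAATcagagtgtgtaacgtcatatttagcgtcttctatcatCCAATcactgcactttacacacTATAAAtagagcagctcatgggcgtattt
H4C2, chr6:26027284-26027413, minus strand: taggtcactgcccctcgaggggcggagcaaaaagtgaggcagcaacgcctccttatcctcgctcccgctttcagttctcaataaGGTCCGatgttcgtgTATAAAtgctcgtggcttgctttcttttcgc
TATAAA was in 35 of the 61 clustered promoters (57.4%), in 4 of the 18 variant ones (22.2%) and in 7.33% of all 35116 RefSeq promoters. CCAAT was in 51 clustered promoters (83.6%), in 15 variant ones (83.3%) and in 34.6% of all. The octamer was in 11 of 14 H2A and 14 of 18 H2B promoters, in 1 of 18 variant promoters and in 1.77% of all. AAACACA was in 6 of 6 clustered H1 promoters and in 5.64% of all, and GGTCCG was in 12 of 13 clustered H4 promoters and in 11.3% of all. TTTGAA was in 21 of the 61 clustered promoters (34.4%), in 4 of the 18 variant ones (22.2%) and in 15.2% of all. A match says that the letters are present, not that a factor binds them.

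Library makeup differed between the groups. Gene counts summed to 45033885 and 39047453 in resistant libraries and to 25589724 and 29866008 in control libraries. Reads not aligned made up 20.3% and 20.7% of the records in resistant libraries, against 37.0% and 34.2% in control libraries. Luminal prostate markers were present in both groups, with 7 of 9 higher, 2 lower and summed levels of 4539 and 4545 CPM in resistant and 3144 and 3177 CPM in control libraries. This count and that of the next markers are to be read against all 20325 genes tested. Of those, 33.0% were higher and 31.7% lower at an edgeR adjusted p below 0.05. Of 14 markers of leukocytes, fibroblasts, endothelium and basal cells, 3 (CD3E, COL1A2 and KRT5) had no count. Their summed level was 13.0 and 12.1 CPM in resistant and 12.3 and 13.97 CPM in control libraries, with 4 tested, 2 of them higher and 2 lower. TP63, a basal cell factor and 1 of those higher, passed the filter on low counts through its resistant libraries only, so its values are a description: 1.95 and 2.15 CPM in resistant and 0 and 0.036 CPM in control libraries. The part of such cells in the results was not tested. CPM is a gene's count relative to the TMM-scaled total of its library, and TMM is a scaling that sets the bulk of genes equal between libraries.

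Clustered histone transcripts were lower in resistant cells in all 5 histone types. Summed over the 71 genes they stood at 3524 and 3489 CPM in resistant libraries, against 7163 and 7872 CPM in control libraries. Both resistant libraries lay below both control libraries, with means of 3506 ± 24.5 CPM in resistant and 7518 ± 501 CPM in control libraries (SD, n = 2 each), a 2.14-fold lower level. As a share of all gene counts this was 0.377% and 0.370% in resistant and 0.667% and 0.740% in control libraries, with 95% Wilson intervals, which cover counting error only, of 0.375% to 0.379% and 0.368% to 0.372% in resistant and of 0.664% to 0.670% and 0.737% to 0.743% in control libraries. In bulk RNA, fewer cells in S phase and less histone RNA per cell cannot be told apart.

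**Figure D1:**
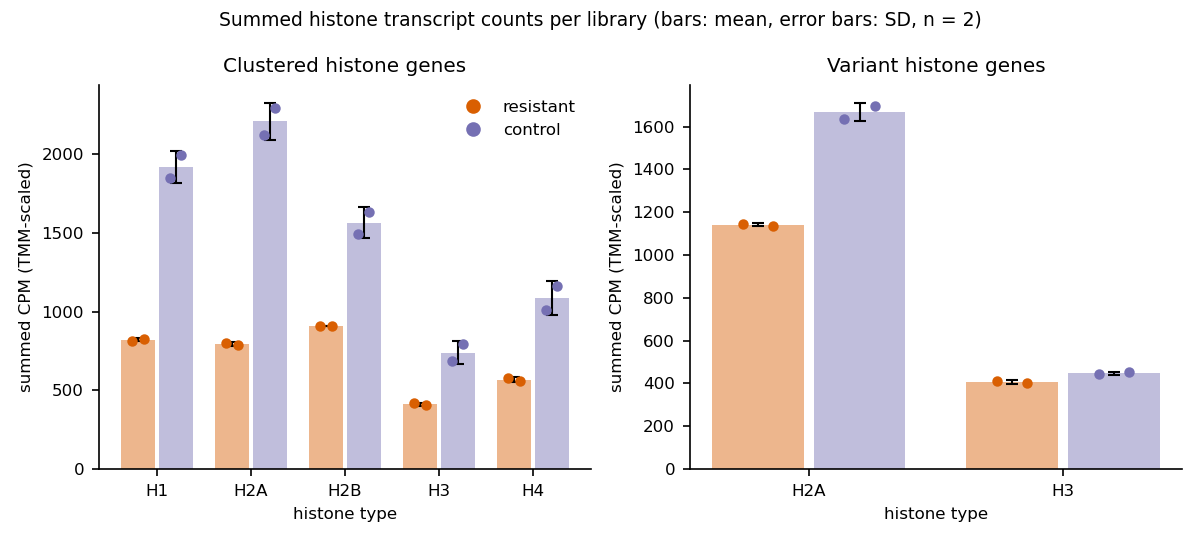
Summed CPM of clustered (left panel) and variant (right panel) histone genes by histone type, with resistant libraries left of control libraries, dots for single libraries, bars for means and error bars for SD (n = 2). All 5 clustered types are lower in resistant libraries, as is the sum of variant H2A. Variant H1 and H2B are not drawn.

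By summed CPM the fall was largest in H2A. Summed clustered H2A was 803 and 788 CPM in resistant and 2124 and 2291 CPM in control libraries, or 2.78-fold lower. Clustered H1 was 816 and 829 CPM in resistant and 1849 and 1992 CPM in control libraries, or 2.33-fold lower. The 3 other types fell less, H4 by 1.91-fold, H3 by 1.80-fold and H2B by 1.72-fold, and resistant and control libraries did not overlap in any type. The median log2 fold change of the tested genes was -1.47 for H1 and -1.39 for H2A. Differences between types were not tested.

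Of the 71 clustered genes, 7 had no count in any library, 13 had too few counts for the test and 51 entered edgeR's quasi-likelihood test. At an adjusted p below 0.05, 46 of the 51 were lower in resistant cells, 1 was higher and 4 were not called. Among all 20325 genes tested, 31.7% were lower and 33.0% higher with a median log2 fold change of -0.016, and among other protein-coding genes 31.2% were lower and 42.5% higher. The median log2 fold change of the 51 genes was -1.06, and 30 of them were at least 2-fold lower, H2BC1 and H2BC3 included. The share of all genes tested that was 2-fold lower was not counted, here or for the H2A genes below. The resistant and control libraries did not overlap for 49 of the 51, to be read against 81.3% of all genes tested. The filter on low counts was passed through the libraries of 1 group only by 3 of the 51 (H2BC1 and H2BC3 through control, H3C14 through resistant libraries). Of the other 48, 44 were lower, 0 higher and 4 not called, with a median of -1.06. By type, 4 of 4 tested H1 genes, 13 of 13 H2A, 14 of 16 H2B, 7 of 9 H3 and 8 of 9 H4 genes fell. The fall was in all clusters, with 38 of 41 tested HIST1 genes, 5 of 7 HIST2 genes, 2 of 2 HIST3 genes and the single HIST4 gene lower.

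**Figure D2:**
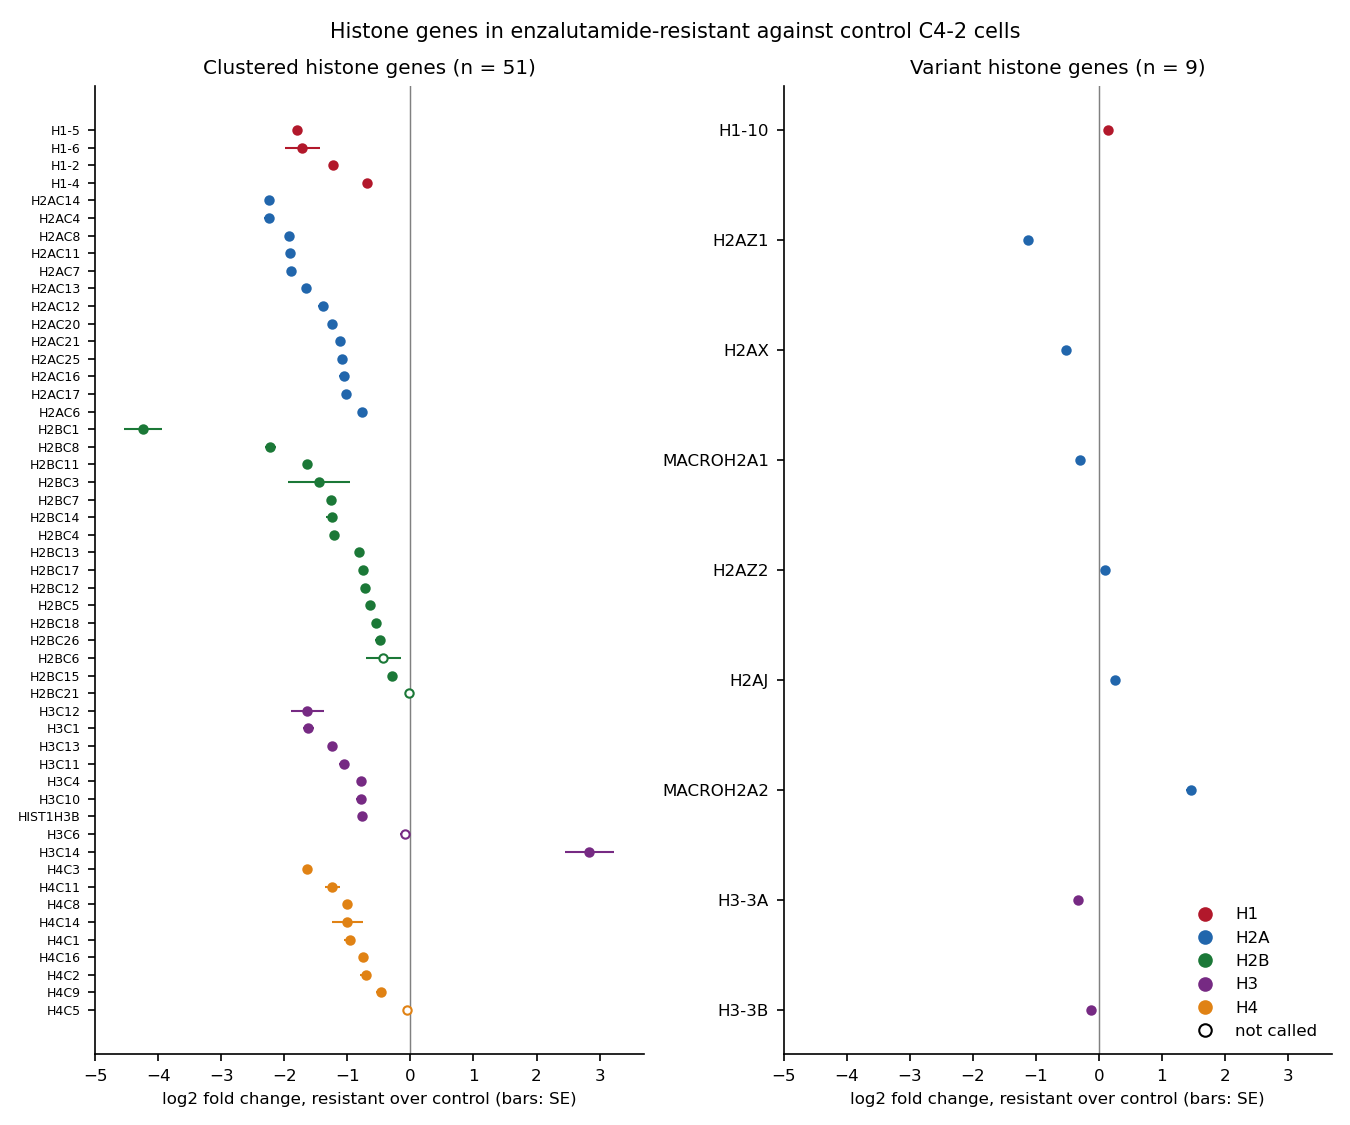
Log2 fold change, resistant over control, of the 51 tested clustered (left) and 9 of the 10 tested variant (right) histone genes, coloured by histone type, with bars for the standard error and open symbols for genes not called. Clustered genes lie mostly left of 0, with H3C14 drawn at 2.84 and H2BC1 at -4.24, both of which passed the filter on low counts through 1 group only, and variant genes lie on both sides.

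Linker histones of the clusters fell by different amounts. H1-5 (chr6:27866849-27867529) had 171 and 174 CPM in resistant libraries, against 574 and 623 CPM in control libraries. Its log2 fold change was -1.79 with a standard error (SE) of 0.044 (edgeR adjusted p = 3.38e-11), and further values are given as log2 fold change ± SE. H1-2, the most abundant clustered H1 gene per kb, had 377 and 381 CPM in resistant and 849 and 921 CPM in control libraries (-1.22 ± 0.041, adjusted p = 3.31e-10). Levels per kb divide CPM by the exonic length in GENCODE 29. That is the coding sequence only for 35 clustered genes, so ranks per kb depend on the annotation. H1-4 fell less, to 268 and 273 CPM in resistant libraries, against 425 and 446 CPM in control libraries (-0.69 ± 0.038). In each of these 3 genes both resistant libraries were below both control libraries. H1-3 had 5 and 5 counts in resistant and 0 and 0 counts in control libraries and was not tested.

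Among H2A genes, 12 of the 13 that were tested fell at least 2-fold. H2AC14 (chr6:27814354-27814740) had 25.4 and 25.8 CPM in resistant libraries, against 118 and 124 CPM in control libraries (-2.24 ± 0.046, adjusted p = 1.23e-11). H2AC11 had 146 and 141 CPM in resistant and 533 and 549 CPM in control libraries (-1.91 ± 0.039, adjusted p = 1.15e-11, the smallest of all members). Neither gene's libraries overlapped between the groups. H2AC4, H2AC8 and H2AC7 had log2 fold changes of -2.24, -1.92 and -1.89, and H2AC13 one of -1.65. H2AC20, the most abundant H2A gene per kb though below H2AC11 by CPM, had 136 and 134 CPM in resistant and 308 and 328 CPM in control libraries (-1.24 ± 0.042). The smallest fall of the type was that of H2AC6, at -0.76.

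Among H2B genes, 14 of the 16 that were tested fell. H2BC1, which encodes a testis-type H2B, had 4 and 6 counts in resistant libraries, against 48 and 65 counts in control libraries. It passed the filter through its control libraries only, so its log2 fold change of -4.24 ± 0.31 is a description. H2BC8 and H2BC11 had log2 fold changes of -2.22 and -1.65. H2BC12, the most abundant H2B gene per kb though below H2BC4 and H2BC5 by CPM, had 121 and 121 CPM in resistant and 190 and 208 CPM in control libraries (-0.72 ± 0.047, adjusted p = 7.91e-08). H2BC21, in contrast, had 156 and 152 CPM in resistant and 149 and 163 CPM in control libraries. These overlapped, and the difference of -0.021 ± 0.048 was not called (adjusted p = 0.726). Its sign turned to 0.17 when libraries were scaled by total gene count, where it was called higher (adjusted p = 0.0114). The median of all genes was also 0.17 with that scaling. H2BC6 was also not called, at 26 and 29 counts in resistant and 17 and 26 in control libraries (-0.43 ± 0.28, adjusted p = 0.205).

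Among H3 and H4 genes, H4C3 fell most of those with high levels. It had 156 and 154 CPM in resistant libraries, against 454 and 511 CPM in control libraries (-1.64 ± 0.052, adjusted p = 2.04e-10), and it was the most abundant H4 gene per kb. HIST1H3B, the most abundant H3 gene per kb, had 185 and 181 CPM in resistant and 296 and 330 CPM in control libraries (-0.77 ± 0.049, adjusted p = 6.54e-08). Neither gene's libraries overlapped. H3C1 fell by 1.62 and H4C2 by 0.71 on the log2 scale. H4C5 had 182 and 173 CPM in resistant and 173 and 195 CPM in control libraries, which overlapped (-0.052 ± 0.055, adjusted p = 0.424), and H3C6 had 11.9 and 11.4 CPM in resistant and 12.5 and 12.4 CPM in control libraries (-0.094 ± 0.070, adjusted p = 0.262). With the length and GC correction described below, H4C5 and H2BC21 were called higher, at 0.20 and 0.12.

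H3C14 (chr1:149839538-149841193) was the one clustered gene called higher. It had 77 and 49 counts in resistant libraries, against 7 and 3 counts in control libraries, a log2 fold change of 2.84 ± 0.39. It passed the filter through its resistant libraries only, so this is a description. The value was 3.68 without control replicate 1 and 2.25 without control replicate 2, so that the few control counts set its size. Its coding sequence is identical to that of H3C15, which had 6 and 1 counts in resistant and 3 and 4 counts in control libraries. A gene on the other strand overlaps it, and the sources used here do not state whether counting used the strand, so its value is uncertain. Of the 38 tested clustered genes with no overlapping gene and no identical coding sequence elsewhere among the members, 35 fell and 0 rose by edgeR, also at an unadjusted p below 0.05, with a median of -1.22. DESeq2 called 34 lower and 0 higher. The 35 that fell by edgeR include H2BC1 and H2BC3, which passed the filter through control libraries only, so their fall is a description.

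Many H2A and H2B genes lie head to head and share the stretch between their starts. There were 10 such pairs of a tested H2A and a tested H2B gene, with 219 to 331 bases between their annotated starts. Both genes fell in 9 of the 10, with medians of -1.52 for the H2A and -1.01 for the H2B partners, and the H2A gene had the lower log2 fold change in 8. H2AC14 and H2BC14 had values of -2.24 and -1.25, and H2AC7 and H2BC7 of -1.89 and -1.25. The pairs of H2AC8 with H2BC8 (-1.92 and -2.22) and of H2AC6 with H2BC4 (-0.76 and -1.21) ran the other way. In the exception, H2AC20 fell by 1.24 while its partner H2BC21, whose promoter is printed above, was not called. Differences within pairs were not tested.

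Clustered genes were also grouped by annotated 3′ end. The counts by class are to be read against all genes tested, of which 31.7% were lower and 33.0% higher. The 22 tested clustered genes annotated as coding sequence only all fell, with a median log2 fold change of -1.24. Among them, H2BC1 and H2BC3 passed the filter on low counts through control libraries only, so their fall is a description. All 10 with the stem-loop and no poly(A) signal (AATAAA or ATTAAA in the last 40 bases of a transcript) fell too, with a median of -0.91. Of the 16 with a poly(A) signal at an annotated end, 11 fell, 1 rose and 4 were not called, with a median of -0.71. The letters were accepted anywhere in the last 40 bases, so membership does not establish a polyadenylated end. The transcript of H4C11, counted here, ends 6 bases after its stem-loop. The 4 genes not called (H2BC6, H2BC21, H3C6 and H4C5) and H3C14 all belonged to this class. H3C14, the 1 that rose, passed the filter through its resistant libraries only, so its rise is a description. The 3 with a 3′ UTR and neither feature all fell, with a median of -1.64. Of 6 clustered genes described as also giving polyadenylated RNA (H1-2, H2AC6, H2BC4, H2BC5, H2BC12 and H2BC21), 5 fell, with a median of -0.74. The differences between these classes were not tested.

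**Figure D3:**
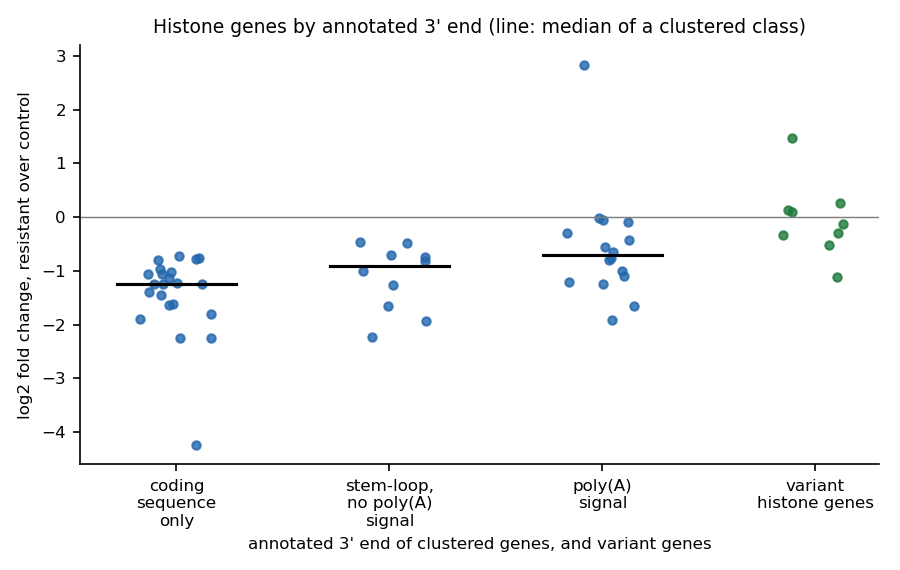
Log2 fold change, resistant over control, of tested clustered genes by annotated 3′ end and of 9 tested variant genes, with a dot for each gene and a line at the median. The medians are -1.24, -0.91 and -0.71 for the clustered classes. H2BC1 and H2BC3 (coding sequence only) and H3C14 (poly(A) signal) passed the filter on low counts through 1 group only. The 3 clustered genes with a 3′ UTR and neither feature are not drawn.

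By promoter letters, the 22 tested H2A and H2B genes with the octamer had a median of -1.24, and the 6 without it -0.73. The 9 tested clustered genes with GGTCCG had a median of -0.75, and the 36 without it -1.17. GGTCCG was in 12 of 13 H4 promoters and in 1 promoter each of H2A, H2B and H3. This contrast can therefore not be told apart from one of histone type. For TATAAA the medians were -1.12 over 25 genes with it and -1.03 over 20 without. For TTTGAA they were -1.12 over 15 genes with it and -1.01 over 30 without. The values of H2BC1, H2BC3 and H3C14 within these medians are a description. H2BC1 and H2BC3 passed the filter on low counts through control libraries only, and H3C14 through resistant libraries only. Differences by letters were not tested.

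Other RNAs that lack a poly(A) tail, and other short genes, were often lower too. 7SK (ENSG00000202198), a small nuclear RNA without a poly(A) tail, had 60258 and 63504 CPM in resistant libraries, against 123800 and 119125 CPM in control libraries (-0.97 ± 0.028, adjusted p = 1.16e-10). RN7SL2, the RNA of the signal recognition particle, fell by 0.93 and RNU4ATAC, a small nuclear RNA of the minor spliceosome, by 0.60 on the log2 scale. With the length and GC correction described below RNU4ATAC was at 0.061 and not called (adjusted p = 0.632). RMRP had 24.3 and 25.8 CPM in resistant and 20.4 and 31.6 CPM in control libraries, which overlapped, and was not called. Of 10 such RNAs, 4 had no count (RPPH1 among them), 6 were tested, and both edgeR and DESeq2 called 4 lower and 0 higher, with 4 and 0 also at an unadjusted edgeR p below 0.05. Among all 20325 genes tested, edgeR called 31.7% lower and 33.0% higher. By gene type 55.1% of 69 tested snRNA genes and 52.8% of 142 snoRNA genes were lower and 2.90% and 14.8% higher, with medians of -0.78 and -0.75. Among other protein-coding genes with under 1000 exonic bases, 42.9% of 161 were lower and 16.8% higher, with a median of -0.34, and among those with 1 exon 19.3% of 238 were lower and 44.5% higher, with a median of 0.25.

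With a correction for gene length and GC content, the medians of the snRNA, snoRNA and short protein-coding genes were -0.070, -0.11 and -0.046. That of other protein-coding genes with 1 exon was 0.29, and that of the clustered histone genes was -0.88. Under this correction 45 clustered genes were lower and 3 higher. Over all 20325 genes tested it gave 6716 lower and 6234 higher. Of the 6 tested RNAs without a poly(A) tail, 3 were then lower and 2 higher, with a median of -0.28, against -0.77 without the correction. The medians by annotated 3′ end were then -1.04 for coding sequence only, -0.79 for the stem-loop without a poly(A) signal, -0.48 for genes with a poly(A) signal and -1.24 for the 3 with neither feature. The correction uses exonic length and GC content only, so it cannot address RNA capture, whose part in the fall was not tested.

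Variant histone genes moved in both directions. Of the 22, 8 had no count, 4 had too few counts and 10 were tested, of which 5 were lower and 5 higher, with a median of -0.0088, and the resistant and control libraries did not overlap for any of the 10. The all-gene shares for this comparison are the 31.7% lower, 33.0% higher and 81.3% not overlapping given above. When libraries were scaled by total gene count, which moved the median of all genes to 0.17, the variant median was 0.18 and 3 were called lower. Summed over the 22 genes they stood at 1738 and 1718 CPM in resistant and 2191 and 2264 CPM in control libraries, or 1.29-fold lower.

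**Figure D4:**
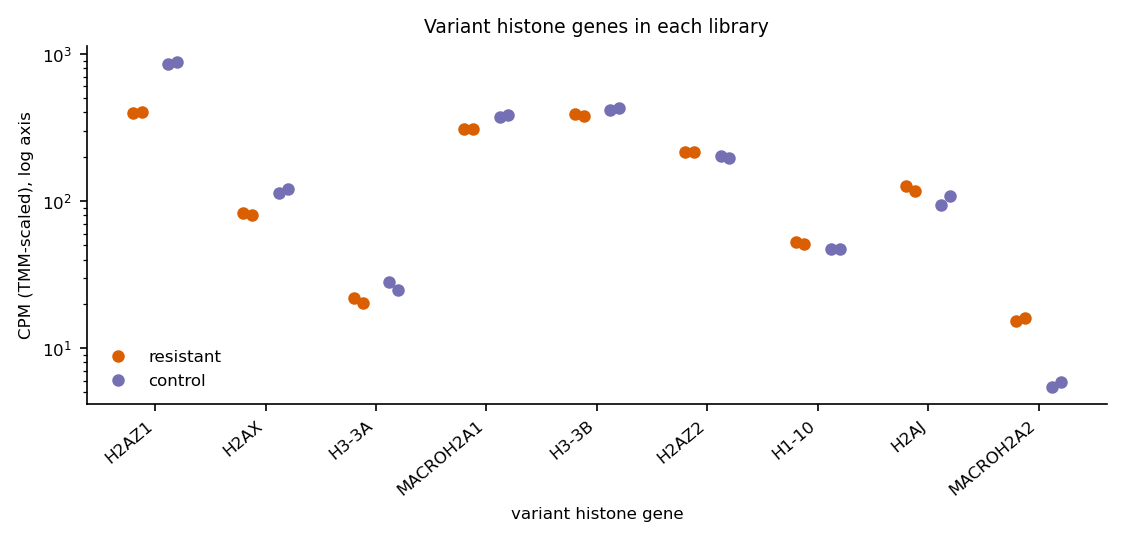
CPM, on a log axis, of 9 of the 10 tested variant histone genes in each library, with resistant libraries left of control libraries, ordered by log2 fold change. H2AZ1 stands lowest relative to control at -1.12 and MACROH2A2 highest at 1.47.

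H2AZ1 carried most of the variant fall. It encodes H2A.Z, which is placed at promoters and enhancers, and it had 398 and 400 CPM in resistant libraries, against 847 and 883 CPM in control libraries (-1.12 ± 0.035, adjusted p = 1.81e-10). Its paralog H2AZ2 had 214 and 214 CPM in resistant and 201 and 197 CPM in control libraries (0.10 ± 0.037, adjusted p = 0.0296). Both resistant libraries were thus below control for H2AZ1 and above it for H2AZ2. The call of H2AZ2 was lost with the replicate block (edgeR adjusted p = 0.0775) and with the filter of 1 CPM (edgeR adjusted p = 0.198). It was also lost with DESeq2 (adjusted p = 0.0559) and with the block and the length and GC correction together (edgeR adjusted p = 0.0660). H2AZ2 was not called without resistant replicate 1 (0.11) or without resistant replicate 2 (0.12).

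H2AX, whose phosphorylated form marks DNA breaks and which alone of the variants holds the stem-loop letters printed above, had 83.2 and 80.3 CPM in resistant libraries, against 114 and 120 CPM in control libraries (-0.52 ± 0.045, adjusted p = 1.09e-06). The macroH2A genes, whose proteins carry a large extra domain and mark silent chromatin, went in opposite directions. MACROH2A1 had 309 and 310 CPM in resistant and 375 and 385 CPM in control libraries (-0.30 ± 0.035, adjusted p = 1.54e-05). MACROH2A2 had 15.4 and 16.04 CPM in resistant and 5.41 and 5.92 CPM in control libraries (1.47 ± 0.081, adjusted p = 1.86e-08). For all 3 genes the groups did not overlap. H2AJ, which encodes H2A.J, had 126 and 117 CPM in resistant and 94.3 and 107 CPM in control libraries (0.27 ± 0.061, adjusted p = 0.00236).

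Among linker variants, H1-10 had 53.0 and 51.2 CPM in resistant libraries, against 47.5 and 47.1 CPM in control libraries (0.14 ± 0.045, adjusted p = 0.0175). Both resistant libraries were above both control libraries. With the length and GC correction H1-10 was called lower, at -0.12 (edgeR adjusted p = 0.0321), and at -0.13 with the replicate block added (adjusted p = 0.0337). With the replicate block alone its adjusted p was 0.0525. Its call was also lost with the filter of 1 CPM (edgeR adjusted p = 0.0794) and with DESeq2 (adjusted p = 0.0923). H1-10 was not called without resistant replicate 1 (0.13).

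H3-3A and H3-3B encode the same H3.3 protein, which is placed outside replication. H3-3B had 392 and 381 CPM in resistant and 414 and 426 CPM in control libraries (-0.12 ± 0.036, adjusted p = 0.0108), and its sign turned to 0.067 under scaling by total gene count. Its call was also lost without the filter on low counts (adjusted p = 0.782), without resistant replicate 1 (adjusted p = 0.104) and without resistant replicate 2 (adjusted p = 0.293). H3-3A had 22.0 and 20.4 CPM in resistant and 28.4 and 24.9 CPM in control libraries (-0.33 ± 0.073, adjusted p = 0.00209) and was not called with that scaling (adjusted p = 0.124) or with the length and GC correction (adjusted p = 0.0719). H3.3 has many processed pseudogenes, so reads of these genes can be lost as not unique.

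Genes that regulate histone transcription moved in both directions. Of 12, 5 were lower, 4 higher and 3 not called, with a median of -0.036. This list and the 4 that follow are to be read against the 31.7% of all tested genes that were lower and the 33.0% that were higher. NPAT had 57.5 and 56.7 CPM in resistant and 53.2 and 46.1 CPM in control libraries (0.20 ± 0.059, adjusted p = 0.0102), and was not called without control replicate 2 (0.11, adjusted p = 0.0672). CCNA2, the S and G2 phase cyclin A, had 48.2 and 44.2 CPM in resistant and 119 and 116 CPM in control libraries (-1.34 ± 0.050). CCNE2, a cyclin E, fell by 0.67, and CREBBP, an acetyltransferase, rose by 0.59 on the log2 scale.

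Of 15 genes of histone pre-mRNA processing and decay, 8 were lower and 4 higher, with a median of -0.14. SLBP had 56.7 and 58.6 CPM in resistant libraries, against 90.3 and 87.0 CPM in control libraries (-0.62 ± 0.044, adjusted p = 1.60e-07), and the groups did not overlap. LSM10, a subunit of the U7 particle that cleaves histone transcripts, fell by 1.04. UPF1, a helicase of mRNA decay, rose by 0.78.

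Of 17 replication-coupled chaperone and acetylation genes, 9 were lower and 5 higher, with a median of -0.17. NAP1L1, an H2A-H2B chaperone, had 280 and 283 CPM in resistant and 644 and 595 CPM in control libraries (-1.14 ± 0.042). ASF1A, an H3-H4 chaperone, fell by 0.85 and HAT1, which acetylates new H4, by 0.76. Of 18 genes of variant histone placement and exchange, 5 were lower and 11 higher, with a median of 0.25. CENPA, the centromeric H3, had 13.8 and 13.99 CPM in resistant and 33.0 and 35.2 CPM in control libraries (-1.30 ± 0.062, adjusted p = 5.14e-09). YEATS4, a subunit of complexes that place H2A.Z, fell by 1.49, and SUPT6H, a chaperone of transcribed chromatin, rose by 0.95. With the length and GC correction the placement and exchange list had 8 lower and 6 higher and a median of 0.022. The median of the S phase genes stayed below 0 in each setting tried, and those of the lists of transcription, processing and replication-coupled chaperones changed sign in at least 1 setting.

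Most S phase and replication genes were lower too. Of 15, 12 were lower, 1 higher and 2 not called, with a median of -0.57. PCNA, the sliding clamp of replication, had 113 and 114 CPM in resistant libraries, against 313 and 321 CPM in control libraries (-1.48 ± 0.038, adjusted p = 4.80e-11). GINS2, of the replicative helicase, fell by 1.69 and RRM2, of ribonucleotide reductase, by 1.08, while RRM1 rose by 0.14. The share of cells in S phase was not measured, and its part in the fall of clustered histone RNA was not tested.

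**Figure D5:**
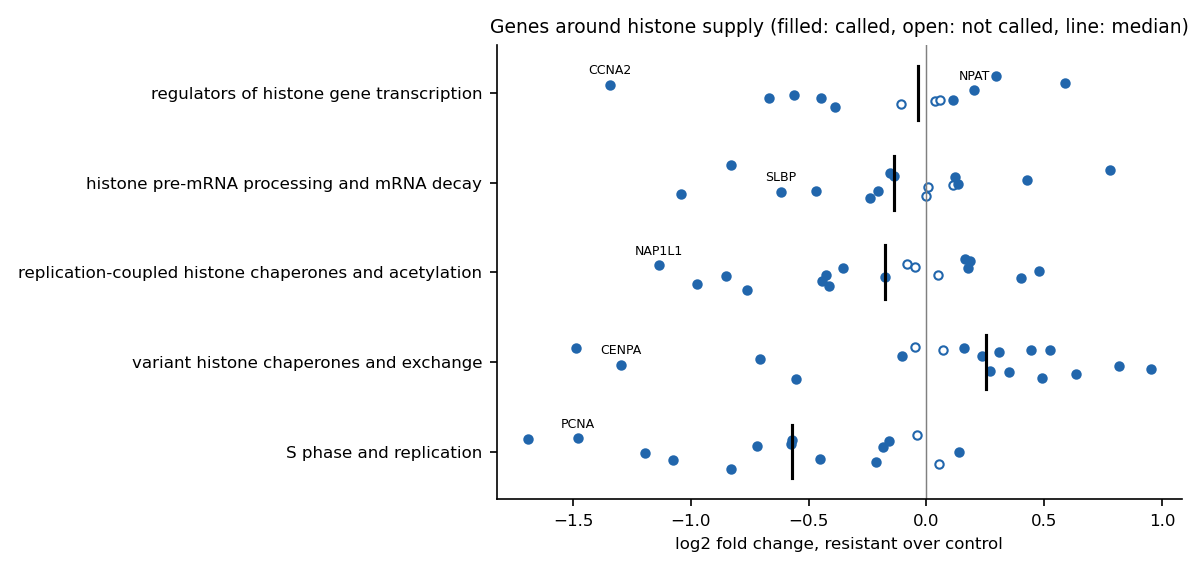
Log2 fold change, resistant over control, of genes in 5 lists around histone supply, with filled symbols for called genes, open symbols for genes not called and a line at each list's median. The S phase list has a median of -0.57 and the list of variant histone placement and exchange a median of 0.25, which was 0.022 with the length and GC correction.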

How the data were processed

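RNA was sequenced in 2 resistant and 2 control libraries. What the authors deposited is 1 table of unnormalized read counts by gene for each library. Per the submitters' processing notes, STAR 2.5.2b (GRCh38) and HTSeq were used. No source used here states HTSeq's mode, its strand setting or the annotation, so reads shared by near-identical or overlapping histone genes can be missing. The 5 rows that are not genes held 55.4% and 56.9% of records in resistant and 74.4% and 71.1% in control libraries, and were left out of library sizes. GENCODE 29 named 56753 of 60483 identifiers.

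Genes passing filterByExpr (minimum count 10) were scaled by TMM and tested in edgeR 4.0.16 (quasi-likelihood, R 4.3.3) with group as the term and 2 residual degrees of freedom, and p-values were adjusted by Benjamini-Hochberg over 20325 genes and called below 0.05. A standard error is the log2 fold change divided by the square root of F. The steps were tested on simulated data. Alternatives were RLE and total-count scaling, DESeq2 1.42.0, other filters, a replicate block, a length and GC offset (smooth terms, mgcv 1.9.3, for 20122 genes with both) and leaving out each library. Libraries within a pair differed beyond sampling noise (chi-square per degree of freedom 2.38 over 24030 genes in resistant and 5.67 over 22264 in control), so all 4 were kept apart. Nothing in the labels ties replicates to separate cultures, and p-values then reflect a spread between libraries that may be technical.

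Members and lists were chosen with earlier results of these data known. Values are given for 9 of the 10 tested variants (the other is not reported here), for the 8 clustered genes of smallest adjusted p, the most abundant per kb of each type, all called higher and those not called, and for up to 3 genes of each list with NPAT, SLBP, CENPA, 7SK, RMRP and RPPH1. The marker lists are reported as sums. H1-3, H1-4, H2BC1, H3C1, H3C15, H4C2, RRM1, TP63 and members of pairs were named after their values were seen.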

Additional observations from a re-analysis of the deposited data

How the results depend on the processing

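The fall of the clustered genes kept its direction in every setting tried, with 44 to 48 genes called lower and 1 to 3 higher. Scaling by total gene count gave medians of -0.87 (clustered) and 0.18 (variant), summed log2 ratios of -0.91 and -0.18, 2 clustered genes higher and 3 variant genes lower. Testing without a filter gave medians of -0.92 and 0.087 and 3 clustered genes higher. The length and GC correction gave -0.88 and -0.13, with 3 clustered genes higher. The replicate block alone moved the variant genes called higher to 3, as did DESeq2 and the filter of 1 CPM. With the replicate block and the correction together the medians were -0.88 and -0.14, with 3 clustered and 3 variant genes higher. The deviations of same-numbered libraries had a correlation of r = -0.023 across genes. With 2 libraries in each group, this cannot exclude a culture or batch that they share. Leaving out 1 library gave clustered medians of -1.11 to -0.98, summed clustered log2 ratios of -1.16 to -1.02, and 1 to 2 clustered genes higher. It gave variant medians of -0.14 to 0.018, summed variant log2 ratios of -0.39 to -0.33, and 3 to 5 variant genes higher.

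Signs turned for genes near 0. Scaling by total gene count moved the median of all genes from -0.016 to 0.17, and 8615 of 20325 genes were then called higher. H2BC21 was at 0.17 with total counts, 0.075 unfiltered, 0.12 with the correction and 0.12 with the block added, H4C5 at 0.14, 0.044, 0.20 and 0.20, and H3C6 at 0.095, 0.0023, 0.050 and 0.046. Without control replicate 1, H2BC21 (-0.078) and H4C5 (-0.13) were called lower, and without control replicate 2 they were at 0.053 and 0.048. H2BC21 was at 0.017 without resistant replicate 2. H1-10 was called lower at -0.12 with the correction and at -0.13 with the block added, and H3-3B was at 0.067 with total counts. RMRP was at 0.12 with total counts and 0.028 unfiltered. It was called higher at 0.24 with the correction (edgeR adjusted p = 0.0459) and at 0.26 with the block added (adjusted p = 0.00596). It was at 0.30 without control replicate 2 and at -0.33 without control replicate 1. RNU4ATAC was at 0.061 with the correction and 0.061 with the block added. The calls of H2BC3 and H4C14 were lost with DESeq2 (adjusted p = 0.115 and 0.0755), and that of H2BC15 with total counts (0.0912). H2BC3 also lost its call with the length and GC correction (edgeR adjusted p = 0.0686). It was not called either without control replicate 1 (-0.93) or without resistant replicate 2 (-1.13). Apart from the shift of all genes with total counts, the cause was not tested. Of 77 genes in the 5 supply lists 64 were called, and 50 to 65 in the settings added for them after the data were seen. The list of pre-mRNA processing ranged over 4 to 10 lower and 2 to 7 higher, that of chaperones over 7 to 12 and 2 to 7, that of placement and exchange over 4 to 8 and 5 to 12, that of transcription over 5 to 6 and 3 to 6, and S phase genes over 9 to 12 and 0 to 3. Low counts limit H3C14, H2BC3 and H2BC6.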

Other observations

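Histone pseudogenes and non-coding RNAs at histone loci, which the symbol rule left out, numbered 91, and 15 of them were tested. Of these 4 were lower in resistant cells and 0 higher at an edgeR adjusted p below 0.05, with a median log2 fold change of -0.11. Among all genes tested 31.7% were lower and 33.0% higher. At an unadjusted p below 0.05 edgeR gave 5 lower and 1 higher, and DESeq2 called 2 lower and 0 higher. H2BC20P, a transcribed H2B pseudogene of the HIST2 cluster, had 21.5 and 22.4 CPM in resistant libraries, against 34.2 and 31.0 CPM in control libraries (-0.57 ± 0.065, adjusted p = 1.04e-05). HIST2H2BB fell by 1.17, H2AZ2-DT, a transcript divergent to H2AZ2, by 1.02 and H2BP1 by 0.94 on the log2 scale.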
